A study of Mus musculus with 6 samples.

Results

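The genes described here are 10 regulators of multiciliogenesis, the program by which an airway cell makes many motile cilia, in epithelium from mouse lungs at E16.5 (embryonic day). They are Gmnc, Mcidas, Trp73, Myb, Ccno, Deup1 (also known as Ccdc67), Foxj1, Foxn4, Rfx2 and Rfx3, chosen as a list of known regulators and found by Entrez identifier among the 27179 gene rows of a bulk RNA sequencing count table. All 10 passed the filter on low counts, as did 14842 genes in all. This list and the gene lists below were chosen with earlier results of these data known. Counts of their genes called are therefore not independent support. Knockout samples (Grhl2_cKO, n = 3, replicates 1, 5 and 10) carried Shh-Cre, 1 floxed Grhl2 allele and 1 null Grhl2 allele. Control samples (n = 3, replicates 1, 3 and 7) also carried Shh-Cre, with 1 floxed and 1 intact Grhl2 allele, so their Cre-active cells keep 1 allele. Shh-Cre expresses the recombinase from the Sonic hedgehog gene, which is active in the lung epithelium and not in that tissue alone. Grhl2 encodes grainyhead-like 2, a transcription factor of epithelia. Cells were sorted for the epithelial surface protein EpCAM, and each group held 2 male samples and 1 female sample.

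In airway epithelium, low Notch signalling lets a cell take the multiciliated fate. The geminin-family proteins GEMC1 (Gmnc) and multicilin (Mcidas) lie at the top of the program and act with the E2F4 and E2F5 factors. p73 (Trp73) and MYB act early, CCNO and DEUP1 serve the mass production of centrioles that become the bases of cilia, and FOXJ1 with the RFX factors turns on the genes of the motile axoneme. Ciliated cells first appear in the proximal airways of the mouse lung late in gestation and are a minority of its epithelium.

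Total counts were 15440843 to 17228762 in Grhl2_cKO libraries and 13472216 to 16386541 in control libraries. Grhl2 itself stood at 105, 109 and 115 CPM (read counts scaled to a common library size with TMM factors) in Grhl2_cKO replicates 1, 5 and 10, against 149, 148 and 146 CPM in control replicates 1, 3 and 7. That left 74.5% of control (edgeR adjusted p = 0.00204). The whole gene was counted, including any exons that the deletion spares. Epcam, the gene of the sorting marker, stood at 335 to 402 CPM in Grhl2_cKO and 501 to 558 CPM in control (67.6% of control, edgeR adjusted p = 0.00527). The labels do not say that each sample came from a separate embryo. The p-values thus set the group difference against the spread between these libraries, which may not be the spread between embryos. In bulk RNA, fewer ciliated-lineage cells and less RNA of a gene per cell cannot be told apart. One knockout library stood apart in markers of another tissue. Heart muscle markers summed to 402 CPM in Grhl2_cKO replicate 1 and to 216 and 214 CPM in the other Grhl2_cKO libraries. Their sum was 159 to 186 CPM in control. Myh7 alone gave 200.5, 191.5 and 195.8 CPM of this in Grhl2_cKO replicates 1, 5 and 10 and 138.4 to 146.5 CPM in control. For the other tested heart markers, Grhl2_cKO replicates 5 and 10 lay within or below the control range, and Grhl2_cKO replicate 1 above it. The mesenchymal and mesothelial sum was 1120 CPM in Grhl2_cKO replicate 1, the highest of the 6, followed by 974 CPM in control replicate 1.

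Of the 10 regulators, 7 were lower in Grhl2_cKO and 0 were higher at an edgeR adjusted p under 0.05. Over all genes tested, 2.38% were called lower and 1.21% higher. No regulator was higher at an unadjusted p under 0.05 either, and DESeq2 and limma-voom also called 7 lower and 0 higher. The 7 were Mcidas, Trp73, Myb, Ccno, Deup1, Foxj1 and Foxn4, and they stood at 43.8% to 63.8% of control. Of the 10 regulators, the same 7 had all 3 knockout libraries below all 3 control libraries, as did 9.89% of all genes tested. The calls rest on the same values, so this is not further support for them. Gmnc, the most upstream regulator, and the RFX genes Rfx2 and Rfx3 did not pass the test, and their groups overlapped. The median log2 fold change over the 10 was -0.90, against 0.00 (-0.00408) over all genes tested. Leaving out Grhl2_cKO replicate 5 or replicate 10 brought the count of regulators called lower to 4, and without Grhl2_cKO replicate 1 it was 7.

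**Figure D1:**
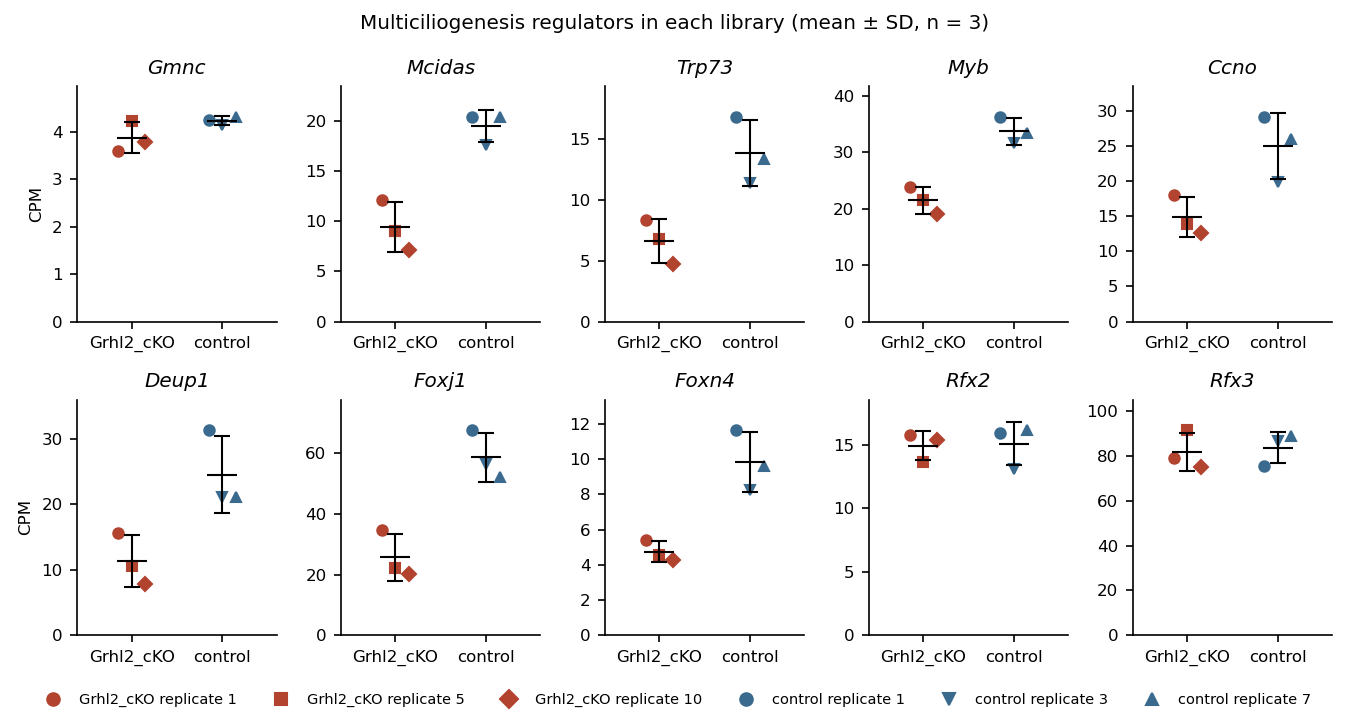
Level of each regulator in each library in CPM, with 3 Grhl2_cKO libraries left of 3 control libraries, horizontal bars at the mean and whiskers of 1 SD; each panel has its own axis from 0. The groups separate for 7 genes and overlap for Gmnc, Rfx2 and Rfx3.

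Among the early regulators, Mcidas, Trp73 and Myb were lower in the knockout and Gmnc was not called. Library values run in the order of replicates 1, 5 and 10 for Grhl2_cKO and 1, 3 and 7 for control throughout. Gmnc (Entrez 239789, chromosome 16, 26957235 to 26991675, mm10) stood at 3.61, 4.24 and 3.79 CPM in Grhl2_cKO and 4.26, 4.14 and 4.32 CPM in control. The groups overlapped, and the knockout mean was 91.4% of control with a 95% interval of 71.1% to 118% (log2 fold change -0.13 ± 0.16 SE, edgeR adjusted p = 0.884). Gmnc was the least abundant of the 10 by CPM, and its interval lies above the estimates of all 7 genes that fell. Mcidas (Entrez 622408, chromosome 13, 112993581 to 113000394) stood at 12.1, 9.05 and 7.16 CPM in Grhl2_cKO against 20.4, 17.6 and 20.4 CPM in control. No knockout library reached the lowest control library. It fell to 48.5% of control (log2 fold change -1.04 ± 0.17 SE, edgeR adjusted p = 0.00796).

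Trp73 encodes p73, a relative of p53 that multiciliated cells need (Entrez 22062, chromosome 4, 154056249 to 154139875). It stood at 8.35, 6.80 and 4.73 CPM in Grhl2_cKO and 16.9, 11.4 and 13.4 CPM in control, with no overlap. The level in the knockout was 47.9% of control (log2 fold change -1.06 ± 0.21 SE, edgeR adjusted p = 0.0209). Significance was lost without Grhl2_cKO replicate 5 (edgeR adjusted p = 0.0697) or replicate 10 (0.0635). Myb, a transcription factor that also acts in dividing blood precursors, was the least reduced of the 7 (Entrez 17863, chromosome 10, 21124930 to 21160984). Its values were 23.8, 21.6 and 19.1 CPM in Grhl2_cKO and 36.3, 31.6 and 33.3 CPM in control, again without overlap. The fall was to 63.8% of control (log2 fold change -0.65 ± 0.10 SE, edgeR adjusted p = 0.00593). Ptprc, a marker of blood cells, was at or below 0.361 CPM in Grhl2_cKO and 0.608 CPM in control. None of the 7 tested blood markers was called by edgeR, DESeq2 or limma-voom or had an unadjusted p under 0.05, and the 11 that were found summed to 74.8 to 105 CPM in Grhl2_cKO and 60.2 to 103 CPM in control. The same counts of 0 held for the 8 dividing cell markers, which summed to 2581 to 2912 CPM in Grhl2_cKO and 2349 to 2850 CPM in control.

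Both genes of centriole production fell. Ccno encodes an atypical cyclin whose loss in humans leaves airway cells with few cilia (Entrez 218630, chromosome 13, 112987802 to 112990778). Ccno stood at 18.0, 13.9 and 12.6 CPM in Grhl2_cKO and 29.1, 19.9 and 26.0 CPM in control. The highest knockout library lay just under the lowest control library, and the mean level was 59.5% of control (log2 fold change -0.75 ± 0.16 SE, edgeR adjusted p = 0.0337). Without Grhl2_cKO replicate 5, Grhl2_cKO replicate 10, control replicate 1 or control replicate 7 the call was lost (edgeR adjusted p = 0.125, 0.132, 0.0718 and 0.0907). Deup1 encodes the scaffold of the deuterosome, the structure on which new centrioles form in multiciliated cells (Entrez 234964, chromosome 9, 15559864 to 15628351). Its levels were 15.6, 10.5 and 7.87 CPM in Grhl2_cKO and 31.3, 21.1 and 21.0 CPM in control. Deup1 varied most within the knockout group in relative terms, yet the groups did not overlap, and it fell to 46.5% of control (log2 fold change -1.10 ± 0.23 SE, edgeR adjusted p = 0.0291). That call was lost without Grhl2_cKO replicate 5 (edgeR adjusted p = 0.106), Grhl2_cKO replicate 10 (0.093), control replicate 1 (0.0502) or control replicate 3 (0.0591), and in the robust quasi-likelihood fit (0.122).

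The late transcription factors split into a pair that fell and a pair that was not called. Foxj1, which turns on the motile cilium genes, had the largest fold change of the 10 (Entrez 15223, chromosome 11, 116330704 to 116335499). It stood at 34.7, 22.01 and 20.3 CPM in Grhl2_cKO and 67.7, 56.5 and 52.1 CPM in control, so the groups lay far apart. The remaining level was 43.8% of control (log2 fold change -1.19 ± 0.18 SE, edgeR adjusted p = 0.00575). Foxn4, known in Xenopus to promote genes that multiciliated cells need, was lower too (Entrez 116810, chromosome 5, 114254164 to 114274418). Foxn4 had 5.41, 4.56 and 4.26 CPM in Grhl2_cKO and 11.7, 8.27 and 9.61 CPM in control. These groups did not overlap, and 48.4% of control remained (log2 fold change -1.05 ± 0.17 SE, edgeR adjusted p = 0.0076).

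Rfx2 and Rfx3 encode factors that bind the X-box of ciliary genes, in cells with primary as well as motile cilia. Rfx2 (Entrez 19725, chromosome 17, 56775897 to 56831008) stood at 15.8, 13.7 and 15.4 CPM in Grhl2_cKO and 15.98, 13.1 and 16.2 CPM in control. Its libraries interleaved, at 99.3% of control with a 95% interval of 83.2% to 119% (log2 fold change -0.01 ± 0.12 SE, edgeR adjusted p = 0.994). Rfx3 (Entrez 19726, chromosome 19, 27761721 to 28014669) stood at 79.2, 91.5 and 75.1 CPM in Grhl2_cKO and 75.6, 86.9 and 88.8 CPM in control. It too overlapped, at 97.7% of control with an interval of 85.4% to 112% (log2 fold change -0.03 ± 0.09 SE, edgeR adjusted p = 0.968). For both RFX genes the interval, which covers the sorted cells as a whole, leaves out a fall as deep as that of any of the 7. Levels within ciliated cells alone were not measured. RefSeq places small predicted genes over part of Trp73, Deup1, Rfx2 and Rfx3, and no source used here gives the strand setting of the read counter, so shared reads could not be assigned.

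**Figure D2:**
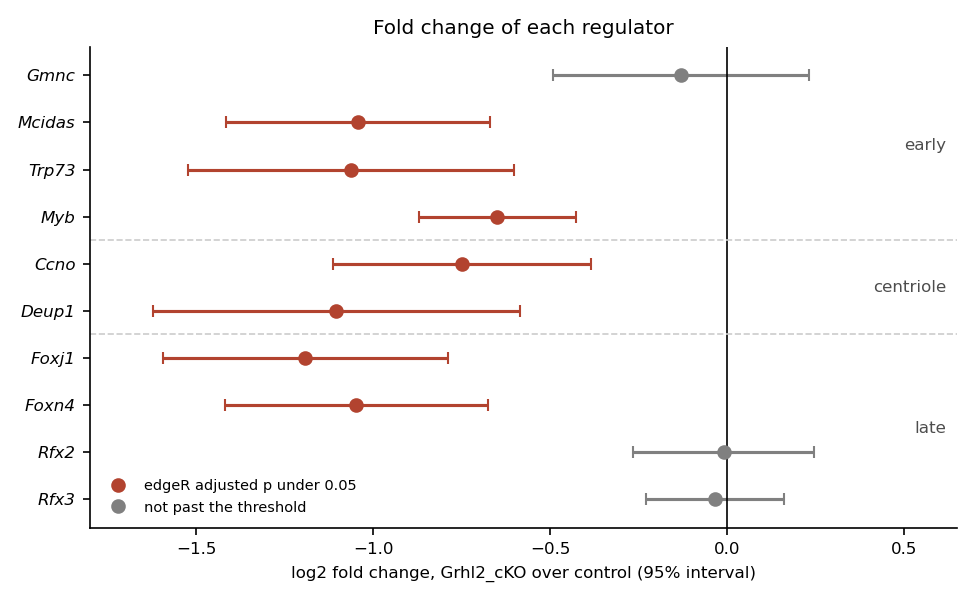
Log2 fold change of Grhl2_cKO over control for each regulator, with the 95% interval of the edgeR fit, ordered from early regulators at the top to late transcription factors at the bottom. The 7 intervals drawn in red lie below 0, and those of Gmnc, Rfx2 and Rfx3 span 0.

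Summed by role and library, the early regulators came to 47.8, 41.7 and 34.7 CPM in Grhl2_cKO and 77.8, 64.7 and 71.4 CPM in control, or 58.1% of control. The centriole genes Ccno and Deup1 together came to 33.6, 24.4 and 20.5 CPM in Grhl2_cKO and 60.4, 41.0 and 47.0 CPM in control, or 52.9% of control. For the late transcription factors the sums were 135, 132 and 115 CPM in Grhl2_cKO and 171, 165 and 167 CPM in control, or 76.0% of control. Rfx3, which was not called, had the highest CPM of the 4 late factors in every library. On average it made up 81.9 of 127 CPM of the late sum in Grhl2_cKO and 83.8 of 167 CPM in control. The 76.0% therefore weighs Rfx3 most and does not stand for each late factor. None of the 3 sums overlapped between groups. Among single genes tested, 9.89% had every knockout library below control.

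Ccno and Mcidas are neighbours on chromosome 13, and Cdc20b follows them. Between the end of Ccno and the start of Mcidas lie 2802 bases, and between the end of Mcidas and the start of Cdc20b 34580 bases. Cdc20b encodes a relative of the cell cycle protein CDC20 that multiciliated cells use to free new centrioles from deuterosomes. It stood at 8.59, 6.87 and 6.33 CPM in Grhl2_cKO and 19.0, 14.1 and 16.1 CPM in control. All 3 knockout libraries lay below control, at 44.6% of its level (log2 fold change -1.17 ± 0.15 SE, edgeR adjusted p = 0.00251). Other tested genes of the region did not pass the test. On the Ccno side, Plpp1, Mtrex and Dhx29 stood at 102%, 100.2% and 97.0% of control, with adjusted p-values of 0.976, 0.996 and 0.925 from edgeR. Gpx8, which lies within the span of Cdc20b, stood at 100.4% of control with an adjusted p of 0.995 from edgeR.

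**Figure D3:**
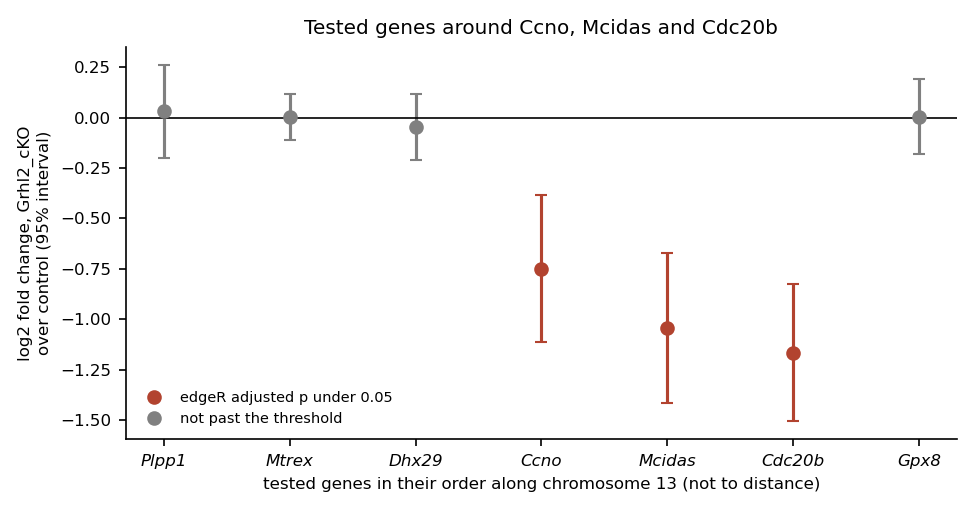
Log2 fold change of Grhl2_cKO over control with its 95% interval for the 7 tested genes of the Ccno, Mcidas and Cdc20b region, in their order along chromosome 13 and not to distance. The 3 multiciliogenesis genes lie below 0 side by side, and the intervals of the 4 others span 0.

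The same Cdc20b span (chromosome 13, 113034975 to 113121019) holds the miR-449 genes, whose mature microRNAs are abundant in multiciliated cells and share their seed with miR-34. Their 3 rows held at most 6 counts in a library, and poly(A) libraries do not measure mature microRNAs, so no level is given for them. No sequence of miR-449b is shown. The sequences of miR-449c and miR-449a are shown because their genes lie within Cdc20b, which fell. They come from RefSeq on GRCm38.p6, with the shared seed, bases 2 to 8, in capitals.
mmu-miR-449c-5p: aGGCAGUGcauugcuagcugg
mmu-miR-449a-5p: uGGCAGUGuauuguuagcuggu

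Upstream stretches of Ccno and Mcidas are shown because both neighbours fell. Each is the 250 bases before a RefSeq transcript start on GRCm38.p6, on the plus strand, at chr13:112987552-112987801 for Ccno and chr13:112993618-112993867 for Mcidas. The Mcidas stretch precedes an internal transcript start, so it lies within the gene span given above, and 23 of its bases are in annotated exons. Capitals mark GTTGCCNNG, an X-box-like motif of RFX factors.
Ccno: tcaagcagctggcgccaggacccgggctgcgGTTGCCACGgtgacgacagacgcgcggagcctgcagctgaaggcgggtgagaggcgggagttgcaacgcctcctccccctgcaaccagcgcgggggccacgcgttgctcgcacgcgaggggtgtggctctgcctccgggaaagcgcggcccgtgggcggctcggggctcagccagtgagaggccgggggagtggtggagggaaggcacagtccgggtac
Mcidas: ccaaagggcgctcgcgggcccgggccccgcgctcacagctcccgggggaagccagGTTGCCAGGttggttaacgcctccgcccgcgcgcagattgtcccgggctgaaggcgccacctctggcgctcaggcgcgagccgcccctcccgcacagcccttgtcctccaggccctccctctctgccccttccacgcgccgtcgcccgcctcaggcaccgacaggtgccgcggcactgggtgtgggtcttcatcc
The motif begins 219 bases before the start in Ccno and 195 bases before it in Mcidas.

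Promoter windows (250 bases before to 50 after a start) were at hand for 9 of the 10 regulators, 12 windows in all, and not for Foxj1. Exact letters were searched on both strands. GTTGCCNNG was in windows of 5 regulators (Ccno, Deup1, Mcidas, Rfx2 and Rfx3) and in 5.00% of all 32851 windows. The shorter GTTGCC, which it contains, was in windows of 6 (those 5 and Trp73) and in 12.5% of all windows. The grainyhead motif AACCGGTT was in 0 regulators' windows and in 0.146% of all, and its relaxed form AACNNGTT was in a window of Gmnc and in 4.20% of all. The forkhead motif GTAAACA was in a window of Myb and in 3.65% of all. AACNGNC, bound by MYB proteins, was in windows of 5 regulators (Deup1, Foxn4, Rfx2, Rfx3 and Trp73) and in 32.8% of all, and the E2F motif TTTCCCGC was in 0 and in 1.07% of all. A match is a run of letters and not a measured site. The GTTGCCNNG motif was in windows of Rfx2 and Rfx3, which were not called, as well as in those of 3 genes that fell. Stretches of 30 bases around further matches are shown for that contrast, each read on its gene's minus strand, with the match in capitals. They lie at chr9:15627909-15627938 for Deup1, where the match is on the opposite strand and before an internal start, at chr17:56831105-56831134 for Rfx2 and at chr16:26991708-26991737 for Gmnc, whose match is AACNNGTT.
Deup1: gccgcgtctcCATGGCAACccactgggaac
Rfx2: cttggtaaccGTTGCCGGGcgcaacgcccc
Gmnc: gaatgaaactcAACTGGTTggcccattcag

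The regulators were also set against Foxj1 in the same library. Foxj1 had the largest fall, so differences in these ratios above 0 follow from that choice. Mcidas per unit of Foxj1 was 0.348, 0.411 and 0.353 in Grhl2_cKO and 0.301, 0.311 and 0.391 in control, so the ratios overlapped. The mean log2 ratio differed by 0.15 for Mcidas, 0.18 for Foxn4, 0.14 for Trp73 and 0.09 for Deup1 (Grhl2_cKO minus control), all with overlapping groups. Rfx3 per unit of Foxj1 was 2.28, 4.16 and 3.70 in Grhl2_cKO and 1.12, 1.54 and 1.70 in control. Every knockout ratio lay above every control ratio for Rfx3, with a difference of 1.20 in mean log2 ratio, and likewise for Rfx2 (1.22), Gmnc (1.10), Myb (0.57) and Ccno (0.48). With 3 libraries against 3, a two-sided exact permutation test cannot go below p = 0.1, and these 5 genes reached it, with an adjusted p of 0.18 over the 9 comparisons, so none passed. The exact permutation p was 0.3 for Mcidas and Foxn4 and 0.6 for Trp73 and Deup1. This comparison was chosen after the values were known. The share of all genes whose ratios to Foxj1 separate in this way was not computed. Nothing particular to the regulators can therefore be read from the 5 separations.

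**Figure D4:**
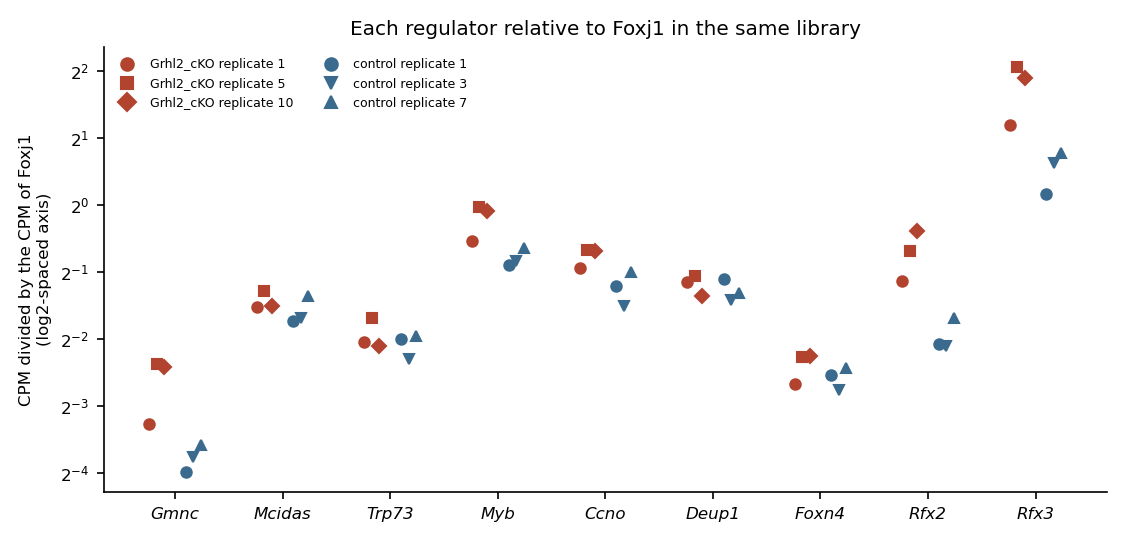
CPM of each regulator divided by the CPM of Foxj1 in the same library, on a log2-spaced axis, with Grhl2_cKO left of control. Gmnc, Rfx2, Rfx3, Myb and Ccno have every knockout ratio above every control ratio, and Mcidas, Trp73, Deup1 and Foxn4 overlap.

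Per length (RPKM, using the lengths in the deposited table), Foxj1 was the most abundant in both groups, at 9.95 ± 3.05 RPKM in Grhl2_cKO and 22.8 ± 3.11 RPKM in control (SD, n = 3 each). Its range did not touch that of the next gene in control, but in Grhl2_cKO it overlapped the range of Rfx3 (8.77 ± 0.913 RPKM). In Grhl2_cKO the order went on with Ccno (7.90), Myb (5.69), Rfx2 (4.46), Mcidas (4.01), Deup1 (3.75), Foxn4 (1.596), Trp73 (1.25) and Gmnc (0.949 RPKM). In that group, ranges of neighbours in the order did not touch between Ccno and Myb, Myb and Rfx2, and Deup1 and Foxn4. In control the order after Foxj1 was Ccno (13.3), Rfx3 (8.97), Myb (8.93), Mcidas (8.26), Deup1 (8.09), Rfx2 (4.504), Foxn4 (3.31), Trp73 (2.61) and Gmnc (1.04 RPKM). Neighbours there did not touch between Foxj1 and Ccno, Ccno and Rfx3, Deup1 and Rfx2, and Trp73 and Gmnc. Mcidas and Deup1 thus stood below Rfx2 in the knockout and above it in control by their means, and their knockout ranges overlapped that of Rfx2.

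The libraries of a group were not alike for these genes. Grhl2_cKO replicate 1 held the highest level among knockout libraries, and Grhl2_cKO replicate 10 the lowest, for all 7 genes that fell. Control replicate 1 held the highest level among controls for all 7. Grhl2_cKO replicate 1 is the female knockout library and the one with the highest heart and mesenchymal sums given above. Control replicate 1 had the next highest mesenchymal sum. The part of sex and of these sums in the levels of the regulators was not tested. Between the male libraries alone (2 against 2), Foxj1 stood at 34.1% of control, Deup1 at 35.1%, Trp73 at 40.7%, Mcidas at 42.7%, Foxn4 at 44.3%, Ccno at 54.0% and Myb at 59.9%. The female libraries (1 against 1, with no replicate check) gave 66.5% for Foxj1, 74.3% for Deup1, 62.6% for Trp73, 59.3% for Mcidas, 56.3% for Foxn4, 69.3% for Ccno and 71.4% for Myb. Each of the 7 was lower in both sexes, and with sex as a covariate all 7 were still called. Gmnc, Rfx2 and Rfx3 stood at 95.6%, 99.97% and 102.5% of control in males, and at 83.5%, 97.7% and 89.2% in females.

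Mean counts were at least 50 for 11710 genes. Of these, the most like Foxj1 over the 6 libraries were Dock8 (Pearson r = 0.998), Elapor1 (0.997), Tor3a (0.996), Pcx (0.996) and Ttc8 (0.995), on log2(CPM + 1). Dock8 averaged 6.36 CPM in Grhl2_cKO and 15.6 CPM in control. The 6 points form 2 groups and share sort and lane, so r is a description. Of the regulators, Deup1 (0.980), Myb (0.979), Mcidas (0.976), Foxn4 (0.966), Trp73 (0.964) and Ccno (0.944) ranked 44 to 200 among these genes. Gmnc (0.462), Rfx2 (0.160) and Rfx3 (0.00, -0.00408) ranked 2553, 4561 and 5835.

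Genes whose products work with the regulators, and relatives of the regulators, were set beside all genes tested. Of those, edgeR called 2.38% lower and 1.21% higher. In lists this short, counts of 1 or 0 called are near those shares. Of 22 genes for multicilin's partners and for centriole duplication, 1 was called lower (Cdc20b) and 0 higher by edgeR, DESeq2 and limma-voom, 3 were lower and 0 higher at edgeR's unadjusted p under 0.05, with a median log2 fold change of -0.06. After Cdc20b, the smallest p-values belonged to Pcm1, a centriolar satellite gene, at 90.6% of control (edgeR adjusted p = 0.308), and Cep152, a recruiter of the centriole kinase PLK4, at 81.2% (0.369). Next came Stil and Cep164, of centriole assembly and distal appendages, at 92.1% and 93.3% (edgeR adjusted p = 0.594 and 0.612), and Ccdc78, a deuterosome gene in Xenopus, at 69.3% (0.633). Ccdc78 was low, at 0.781 to 1.80 CPM in Grhl2_cKO and 1.58 to 1.72 CPM in control, and its groups overlapped. Gmnn, named for its role and not by its p, encodes geminin, the inhibitor that binds GEMC1 and multicilin, and stood at 91.7% of control (edgeR adjusted p = 0.633). Most of these genes also serve dividing cells, whose markers are given above. Of 19 family relatives of the regulators (other RFX, FOXJ, FOXN, MYB, p53 and cyclin A genes), 15 were tested and 0 were called by edgeR, DESeq2 or limma-voom, with a median log2 fold change of 0.06. At edgeR's unadjusted p under 0.05, 1 was lower (Ccna1) and 0 were higher. Ccna1 stood at 53.8% of control (edgeR adjusted p = 0.244), with overlapping groups of 0.962 to 2.16 CPM in Grhl2_cKO and 1.999 to 3.66 CPM in control. Rfx5, Mybl2, Trp63, Ccna2 and Foxn3 stood at 113%, 116%, 149%, 108% and 108% of control (edgeR adjusted p = 0.566 to 0.739). Rfx4, Rfx6, Rfx8 and Foxn1 did not pass the filter.

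Genes of the motile cilium itself were taken as a readout of the program. Of the 45 that were found, 43 were tested. EdgeR called 21 of them lower and 0 higher, against 2.38% and 1.21% of all genes tested. DESeq2 called 28 lower and limma-voom 20, and 33 were lower at edgeR's unadjusted p under 0.05, with 0 higher in each case. For 31 of the 43 every knockout library lay below control, as for 9.89% of all genes tested. The median log2 fold change of the 43 was -1.21, and 41 of the 43 were below 0. Summed, the 45 came to 187, 132 and 133 CPM in Grhl2_cKO and 370, 249 and 247 CPM in control, or 52.2% of control. Dnah5 and Dnah11, outer arm dynein heavy chains, stood at 35.9% and 51.0% of control (edgeR adjusted p = 0.00395 and 0.00478). Cfap65 and Cfap52, cilia and flagella associated genes, stood at 25.3% and 43.6% (0.00583 and 0.00944). Lrrc23, a radial spoke gene, stood at 33.2% (edgeR adjusted p = 0.0066) and Spag17, of the central pair, at 30.9% (0.0107). Dnaic1 and Sntn did not pass the filter. The count of 21 became 7 without Grhl2_cKO replicate 5, 6 without Grhl2_cKO replicate 10 and 12 without control replicate 3.

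**Figure D5:**
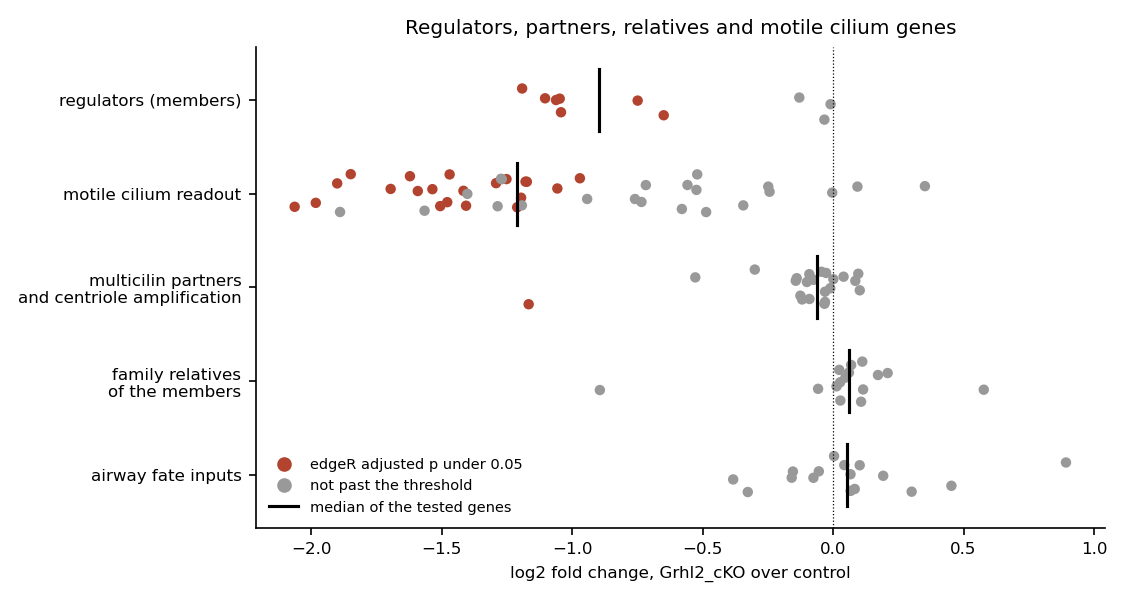
Log2 fold change of Grhl2_cKO over control for each tested gene of 5 lists, with a vertical bar at each list's median and red points for genes past the test. The regulators and the motile cilium genes lie mostly below 0, and the partners, relatives and airway fate inputs lie around 0 with Cdc20b as the called exception.

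Of 16 genes for signals and factors above the program, 0 were called by edgeR or limma-voom and 1 by DESeq2 (Jag1), with a median log2 fold change of 0.05. Over all genes tested, edgeR called 2.38% lower and 1.21% higher, so 0 of 16 is near those shares. At edgeR's unadjusted p under 0.05, 2 were lower and 2 higher. Jag1, a Notch ligand, stood at 42.5, 39.5 and 40.9 CPM in Grhl2_cKO and 55.4, 46.5 and 52.3 CPM in control. The groups did not overlap, at 79.7% of control, and the test was just missed (edgeR adjusted p = 0.0583). Dll1, another Notch ligand, stood at 3.18, 4.24 and 5.09 CPM in Grhl2_cKO and 2.69, 1.76 and 2.32 CPM in control, at 186% of control (edgeR adjusted p = 0.0858). All knockout libraries lay above control for Dll1, at low counts. Jag1 was called lower with no filter, in DESeq2, in the robust fit and without control replicate 3 (adjusted p = 0.0374 to 0.0452), and Dll1 was called higher without Grhl2_cKO replicate 1 (edgeR adjusted p = 0.0482). Grhl3, a grainyhead relative, stood at 137% of control (edgeR adjusted p = 0.0829) and Grhl1 at 89.6% (0.688). Notch1 and Dll4 stood at 89.9% and 123% of control (edgeR adjusted p = 0.228 and 0.388).

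Markers of the secretory airway lineage moved beside the regulators. Of 9 secretory markers tested, edgeR called 3 lower (Aldh1a7, Aldh1a1 and Cbr2) and 0 higher, against 2.38% and 1.21% of all genes tested. Upk3a, Scgb3a2, Cyp2f2, Muc1, Krt7 and Scgb1a1 were not called (edgeR adjusted p = 0.0809, 0.0828, 0.105, 0.118, 0.333 and 0.896). Scgb1a1 stood at 77.5% of control with overlapping groups. DESeq2 called 5 lower and limma-voom 4, and 8 reached an unadjusted p under 0.05 in edgeR as lower, with 0 higher each time. Each of the 9 had a lower mean in the knockout, and their median log2 fold change was -0.98. In 7 of the 9 the groups did not overlap, as for 9.89% of all genes tested. The 10 listed summed to 812 to 1026 CPM in Grhl2_cKO and 1298 to 1507 CPM in control. On average Muc1 gave 348 CPM of this in Grhl2_cKO and 432 CPM in control, and Krt7 gave 282 and 331 CPM. EdgeR called 0 of 12 alveolar and tip markers (unadjusted p under 0.05 for 1 lower and 1 higher, with DESeq2 calling 1 lower and 1 higher) and 0 of 3 basal markers (1 lower unadjusted). EdgeR called 1 of 6 heart muscle markers (Myh7) and 1 of 5 nerve markers (Tubb3) higher. DESeq2 also called 1 of each list higher, and limma-voom called 1 heart muscle marker and 0 nerve markers higher. Tubb3 held only 3 to 5 counts in each control library. Of 6 endothelial and 9 mesenchymal and mesothelial markers, 0 were called by edgeR, DESeq2 or limma-voom. At an unadjusted p under 0.05, 1 endothelial marker was higher and 1 mesenchymal or mesothelial marker lower in edgeR. The part of these differences in the levels of the regulators was not tested.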

How the data were processed

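The deposited data are raw gene counts in 1 table for 6 libraries of polyadenylated RNA from sorted cells, made with a stranded kit and run in 1 lane, per the labels' protocols. Per the submitters' processing notes, bcl2fastq 2.17.1.14, featureCounts, edgeR 3.16.5 and limma 3.30.12 were used, on mm10. No source used here gives the aligner, the strand setting or the treatment of multimapping reads. RefSeq symbols matched 25275 of 27179 rows (99.19% of counts).

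From these counts, edgeR 4.0.16 in R 4.3.3 was run on all 6 libraries with TMM factors, filterByExpr (10 counts at least, 15 in total; 12337 genes left out and 14842 tested), a quasi-likelihood F test, no covariate and Benjamini-Hochberg adjustment over all genes tested at 0.05. Dividing the absolute log2 fold change by the root of F gave the SE. CPM and RPKM were computed on TMM-scaled totals. A count of 3 is 0.177 to 0.224 CPM. Replicates differed by more than counting noise (chi-square per degree of freedom 7.72 to 12.9). On simulated counts the test recovered 59.7% of 1.5-fold, 76.1% of 2-fold and 98.5% of 4-fold changes. Of its 169 calls there, 13 were on unchanged genes.

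The regulators and lists were chosen with earlier results of these data known, so their counts are not independent support. Named genes are the 10 regulators, Grhl2, the 5 genes most like Foxj1 and up to 6 genes with the smallest p in each of 4 lists. Epcam, the markers, genes near Cdc20b and the comparison with Foxj1 were added. Alternatives were 3 other scalings, no filter, 1 CPM in 3 libraries, DESeq2 1.42.0, limma-voom (limma 3.58.1), a robust fit, a sex covariate, and fits without each library in turn. A marker list is not reported here.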

Additional observations from a re-analysis of the deposited data

How the results depend on the processing

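Mcidas, Myb, Foxj1 and Foxn4 were called lower under all 15 alternatives, Trp73 under 13, Ccno under 11 and Deup1 under 10. Gmnc, Rfx2 and Rfx3 were called under none. Adjusted p ranged from 0.000249 to 0.0457 for Foxj1, 5.48e-07 to 0.0378 for Mcidas, 1.41e-05 to 0.0302 for Myb, 7.23e-05 to 0.0409 for Foxn4, 4.79e-05 to 0.0697 for Trp73, 0.000389 to 0.132 for Ccno and 0.00446 to 0.122 for Deup1 (edgeR, DESeq2 or limma). Leaving out a library gave 4 to 7 regulators lower, 165 to 336 genes lower (353 with all libraries), 77 to 221 genes higher (180), 6 to 21 motile cilium genes lower (21), 0 to 1 airway fate inputs lower and 0 to 1 higher. Each such fit has fewer samples. Airway fate inputs called lower went to 1 with no filter, in DESeq2 and in the robust fit, and the cause was not tested. Near 0, the log2 fold change of Rfx2 changed sign under upper-quartile scaling (0.0057) and limma-voom (0.00032), and without Grhl2_cKO replicate 5, control replicate 1 or control replicate 7 (range over the left-out libraries -0.103 to 0.051). That of Rfx3 changed sign without Grhl2_cKO replicate 10 or control replicate 7 (range -0.119 to 0.029), and for neither was the cause tested. No paired analysis was possible because the labels give no pairing of knockout and control samples. Gmnc had 57 to 68 counts per library.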
